A study of Mus musculus with 10 samples.

Results

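The Rtl1-antisense side of the Dlk1-Dio3 miRNAs comprises the mature arms of 10 hairpins on mouse chromosome 12 (Mir673, Mir493, Mir337, Mir540, Mir665, Mir431, Mir433, Mir127, Mir434 and Mir136), out of 1174 annotated miRNA hairpins. They had been chosen for their pattern in these libraries, so their levels over the groups are a description. Small RNA was sequenced from Day 6 embryoid bodies (EBs), which are aggregates of mouse embryonic stem cell (mESC)-derived epiblast-like cells cultured with BMP4, LIF, SCF, BMP8 and EGF. Primordial germ cell-like cells (mPGCLCs) were separated by FACS from the non-PGCLC cells around them. The groups were E14 mPGCLC and E14 non-PGCLC (strain 129/Ola), BG5 mPGCLC and BG5 non-PGCLC (C57BL/6J/DBA/129, carrying Blimp1-GFP) and SGET non-PGCLC (B6CBA/129, carrying Stella-GFP and Esg1-tdTomato), with 2 libraries each and 10 in all. All 3 lines were male, each stands for 1 line of its strain, and SGET mPGCLCs were not analysed here. The study's methods sorted E14 on Ssea1 and Cd61 and BG5 on Ssea1 and Blimp1-GFP, whereas the sample labels give the Stella-GFP and Esg1-tdTomato gate throughout. Strain, line and gate therefore cannot be told apart. Nothing in the labels says that 2 libraries of a group came from separate cultures, so their spread may be technical.

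The libraries held 7421061 to 14444567 reads, of which 15% to 34.5% were assigned to miRNA hairpins, and levels are given as RPM, reads scaled to the file's total. All 10 hairpins had reads, as did 19 of their 20 annotated arms. No molecular identifiers were counted, so amplified copies could not be told from separate molecules. The 4 most abundant arms had between 7 and 89 distinct sequences per library. An arm without reads was below 0.208 to 0.404 RPM, the level that 3 reads represent in the deepest and the shallowest library, and such limits cover counting error only. As these are bulk samples, fewer cells of a type and less RNA per cell cannot be told apart.

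Dlk1-Dio3 is an imprinted region. Its maternally inherited chromosome gives the non-coding RNAs Meg3, Rian and Mirg, together with a large number of miRNAs and snoRNAs, while Dlk1, Rtl1 and Dio3 are expressed from the paternal chromosome. Rtl1 is a retrotransposon-derived gene that is required in the placenta. The miRNAs transcribed from its opposite strand pair with its mRNA without a mismatch and are known to guide its cleavage. The miRNAs of the region are known mainly from the embryo, the placenta and the brain.

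The hairpins lay on the plus strand of chromosome 12 (GRCm38), within 23399 bp at 12:109571990-109595388. Rtl1 lay on the minus strand at 12:109589193-109600330. Mir431 (109590447-109590537), Mir433 (109591715-109591838), Mir127 (109592846-109592915), Mir434 (109594506-109594599) and Mir136 (109595327-109595388) were inside its 5232 bp coding sequence, in antisense and within 1 exon. Mir673 (109571990-109572080), Mir493 (109580233-109580315), Mir337 (109585789-109585885), Mir540 (109586080-109586146) and Mir665 (109586314-109586407) fell between the annotated end of Meg3 and that of Rtl1. All 10 RefSeq mature sequences of the hairpins inside Rtl1 were complementary to the Rtl1 transcript over their whole length, against 0 of 10 for the hairpins outside it.

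The sequence of the more abundant arm of each hairpin is shown because the later account of 5′ and 3′ ends refers to it. Letters are from RefSeq (GRCm38.p6), 5′ to 3′, and capitals mark the seed (bases 2 to 8), which pairs with target mRNAs.
miR-673-5p: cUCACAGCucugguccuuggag
miR-493-5p: uUGUACAUgguaggcuuuc
miR-337-5p: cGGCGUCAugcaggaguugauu
miR-540-3p: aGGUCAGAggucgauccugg
miR-665-3p: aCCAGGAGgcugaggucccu
miR-431-5p: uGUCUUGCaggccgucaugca
miR-433-3p: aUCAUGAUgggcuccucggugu
miR-127-3p: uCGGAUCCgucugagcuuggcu
miR-434-3p: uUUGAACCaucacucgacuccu
miR-136-3p: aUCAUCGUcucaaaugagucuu
The 20 mature sequences of the hairpins had 20 distinct seeds, so no members formed a seed family. Only 2 of these seeds occurred in another of the 1738 RefSeq mouse mature sequences, that of miR-673-5p in miR-6985-3p and that of miR-540-3p in miR-6915-5p.

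Summed over the 10 hairpins, the level was 998 and 1065 RPM in E14 mPGCLC, 1756 and 2133 RPM in E14 non-PGCLC, 4504 and 5719 RPM in BG5 mPGCLC, 16209 and 21385 RPM in BG5 non-PGCLC, and 2264 and 3156 RPM in SGET non-PGCLC. The groups thus ran in the order BG5 non-PGCLC, BG5 mPGCLC, SGET non-PGCLC, E14 non-PGCLC and E14 mPGCLC, and no neighbours in that order overlapped. From the lowest to the highest group the mean rose 18.2-fold. In each line that had both cell types, the sum was lower in mPGCLCs than in the non-PGCLC cells, 1.88-fold in E14 (log2 ratio -0.91, SD of the difference 0.21) and 3.68-fold in BG5 (log2 ratio -1.88, SD 0.37). BG5 non-PGCLC exceeded E14 non-PGCLC 9.67-fold, with a log2 ratio of 3.27 (SD 0.35). With miRNA reads as denominator the cell-type ratios were -1.65 in E14 and -1.32 in BG5, so that the line with the larger ratio turned. When each distinct sequence was counted 1 time they were -0.28 and -0.94, and that of BG5 to E14 non-PGCLC was 1.89. The SGET to E14 non-PGCLC difference was small (log2 ratio 0.48, SD 0.39) and turned to -0.18 when miRNA reads were the denominator. As a share of miRNA reads, the sum was 0.309% and 0.316% in E14 mPGCLC, 0.763% and 1.19% in E14 non-PGCLC, 2.63% and 3.01% in BG5 mPGCLC, 6.58% and 7.52% in BG5 non-PGCLC, and 0.758% and 0.971% in SGET non-PGCLC. On this scale the SGET libraries overlapped with those of E14 non-PGCLC, and the other groups kept their order.

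**Figure D1:**
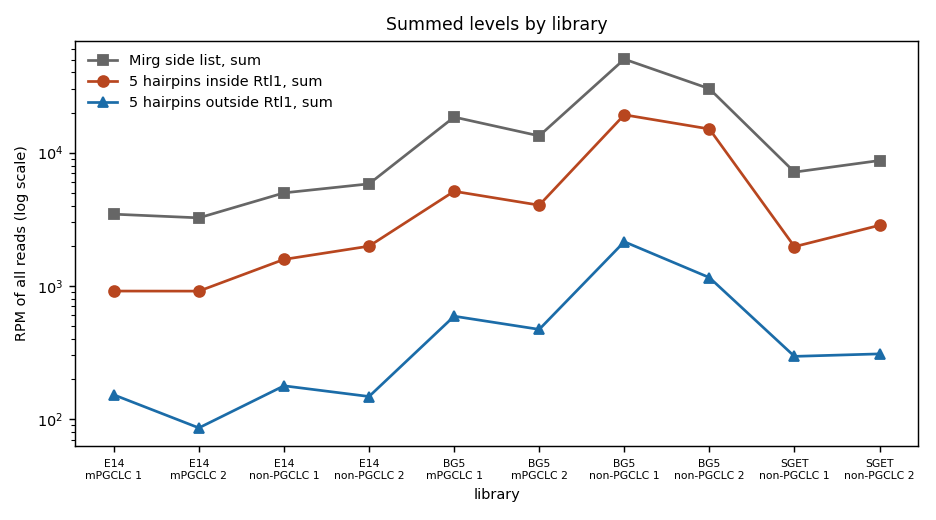
Summed RPM on a log axis for each of the 10 libraries, with the 5 hairpins inside the Rtl1 coding sequence (circles), the 5 outside it (triangles) and the listed Mirg side hairpins (squares). In each library the Mirg side lies above the hairpins inside Rtl1, which lie above those outside it, and all 3 sums are highest in the 2 BG5 non-PGCLC libraries.

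The members were unequal. miR-434-3p, miR-433-3p, miR-127-3p and miR-431-5p, which all lie inside Rtl1, made up 81.2% to 87.2% of the summed RPM in each library. The 5 hairpins outside Rtl1 contributed 6.92% to 14.3%. Ligation and amplification differ between sequences, so such levels rank arms in these libraries and not the molecules in the cells.

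**Figure D2:**
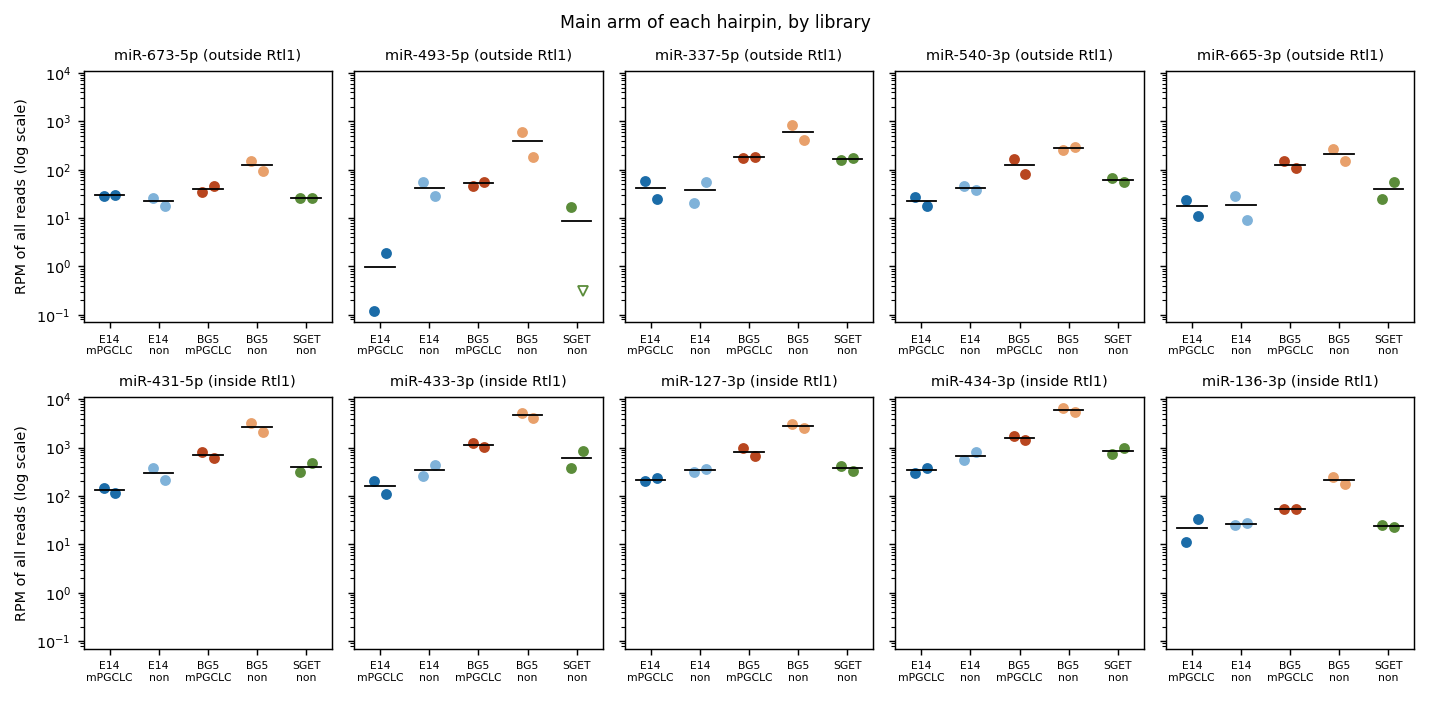
RPM of all reads on a log axis for the more abundant arm of each hairpin in the 5 groups, where circles are single libraries, lines are means of 2 libraries and the open triangle marks the 3-read limit of the SGET library without miR-493-5p reads. In all 10 panels BG5 non-PGCLC is the highest group and its 2 libraries lie above those of all other groups.

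Among the antisense miRNAs inside Rtl1, miR-434-3p was the most abundant. It had 305 and 380 RPM in E14 mPGCLC, 555 and 799 RPM in E14 non-PGCLC, 1736 and 1459 RPM in BG5 mPGCLC, 6487 and 5342 RPM in BG5 non-PGCLC, and 752 and 979 RPM in SGET non-PGCLC. Both mPGCLC libraries of a line lay below both non-PGCLC libraries of that line, and SGET non-PGCLC overlapped with E14 non-PGCLC only. On the TMM scale of edgeR, the log2 difference of mPGCLC to non-PGCLC was -1.19 ± 0.29 (SE) in E14 and -1.19 ± 0.29 in BG5. Those 2 effects differed by 0.01 ± 0.41.

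miR-433-3p reached 206 and 112 RPM in E14 mPGCLC, 255 and 447 RPM in E14 non-PGCLC, 1219 and 1026 RPM in BG5 mPGCLC, 5195 and 4137 RPM in BG5 non-PGCLC, and 380 and 866 RPM in SGET non-PGCLC. Its order of groups was that of miR-434-3p, and again the SGET libraries overlapped with E14 non-PGCLC. Between mPGCLC and non-PGCLC its log2 difference was -1.34 ± 0.40 in E14 and -1.35 ± 0.40 in BG5. It also had the largest difference between the non-PGCLC cells of BG5 and E14 among the 5 antisense main arms, at 2.68 ± 0.42.

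miR-127-3p, the best known of the Rtl1-antisense miRNAs, had 206 and 231 RPM in E14 mPGCLC, 310 and 366 RPM in E14 non-PGCLC, 988 and 661 RPM in BG5 mPGCLC, 3133 and 2536 RPM in BG5 non-PGCLC, and 416 and 332 RPM in SGET non-PGCLC. The E14 cell types were separate but close, with means 1.55-fold apart, while the BG5 cell types were 3.44-fold apart. The fitted log2 differences were -0.83 ± 0.33 and -1.11 ± 0.33, and their difference was -0.28 ± 0.47.

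miR-431-5p had 148 and 113 RPM in E14 mPGCLC, 372 and 216 RPM in E14 non-PGCLC, 804 and 613 RPM in BG5 mPGCLC, 3234 and 2126 RPM in BG5 non-PGCLC, and 315 and 492 RPM in SGET non-PGCLC. As for the 3 arms above, SGET and E14 non-PGCLC overlapped and all other neighbours were separate. The cell types differed by -1.35 ± 0.36 in E14 and by -1.20 ± 0.36 in BG5 on the log2 scale.

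The last antisense member, miR-136-3p, was much less abundant and its lower groups could not be told apart. It had 11.4 and 32.9 RPM in E14 mPGCLC, 24.9 and 27.9 RPM in E14 non-PGCLC, 52.8 and 54.4 RPM in BG5 mPGCLC, 253 and 175 RPM in BG5 non-PGCLC, and 25.2 and 23.3 RPM in SGET non-PGCLC. Only the 2 BG5 groups stood apart from the rest and from each other. With 94 to 2527 reads and 2 to 16 distinct sequences per library, its SE was 1.18 to 1.22 in the 5 comparisons of 2 groups.

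Of the hairpins outside Rtl1, Mir337, Mir540 and Mir665 lie close together. miR-337-5p had 58.3 and 24.7 RPM in E14 mPGCLC, 20.9 and 54.4 RPM in E14 non-PGCLC, 178 and 180.4 RPM in BG5 mPGCLC, 821 and 408 RPM in BG5 non-PGCLC, and 155 and 171 RPM in SGET non-PGCLC. Unlike the 4 abundant arms, it overlapped between the 2 E14 cell types and was separate between SGET and E14 non-PGCLC, whose means differed 4.33-fold (log2 difference 1.57 ± 0.71, not called). miR-540-3p had 27.4 and 17.4 RPM in E14 mPGCLC, 46.0 and 37.8 RPM in E14 non-PGCLC, 169 and 81.1 RPM in BG5 mPGCLC, 257 and 299.8 RPM in BG5 non-PGCLC, and 66.3 and 56.2 RPM in SGET non-PGCLC. All 5 groups of miR-540-3p were separate, in the order of the sum. For miR-665-3p the values were 23.7 and 11.1 RPM in E14 mPGCLC, 28.0 and 9.07 RPM in E14 non-PGCLC, 148 and 107 RPM in BG5 mPGCLC, 269 and 152 RPM in BG5 non-PGCLC, and 25.0 and 55.2 RPM in SGET non-PGCLC. For miR-665-3p, E14 non-PGCLC overlapped with E14 mPGCLC and with SGET non-PGCLC, which were separate from each other. Its BG5 cell types were separate by a margin of 152 to 148 RPM, with a fitted log2 difference of 0.01 ± 1.07.

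miR-673-5p and miR-493-5p, which are nearest to Meg3, departed most from the pattern of the sum. miR-673-5p had 28.3 and 30.7 RPM in E14 mPGCLC, 26.4 and 18.1 RPM in E14 non-PGCLC, 34.4 and 45.2 RPM in BG5 mPGCLC, 153 and 93.4 RPM in BG5 non-PGCLC, and 25.7 and 25.8 RPM in SGET non-PGCLC. It was the 1 main arm that was higher in E14 mPGCLC than in E14 non-PGCLC without overlap, by 1.33-fold. miR-493-5p had 0.121 and 1.86 RPM in E14 mPGCLC (1 and 15 reads), 56.2 and 28.1 RPM in E14 non-PGCLC, 46.9 and 57.0 RPM in BG5 mPGCLC, 593 and 181 RPM in BG5 non-PGCLC, and 17.1 and 0 RPM in SGET non-PGCLC. Its E14 mPGCLC libraries were close to the limit of detection, whereas those of BG5 mPGCLC overlapped with E14 non-PGCLC. It rested on 1 to 2 distinct sequences in each E14 library, and its SE of 1.68 to 2.0 was the largest among the main arms in the 5 comparisons of 2 groups.

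**Figure D3:**
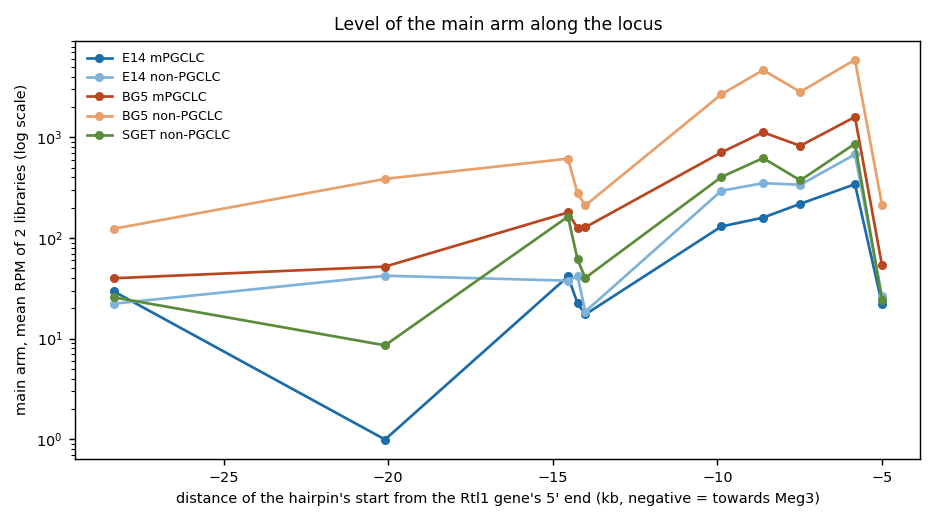
Mean RPM of 2 libraries (log axis) for the more abundant arm of each hairpin against the distance of the hairpin's start from the 5′ end of the Rtl1 gene in kb, with 1 line per group. The 4 arms at -9.88 to -5.82 kb are the most abundant ones in each group, and the level is lower at Mir136, the hairpin nearest to 0.

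Most minor arms were scarce, though miR-434-5p had a higher mean than main arms such as miR-540-3p (106 RPM). The 9 minor arms with reads had means from 1.14 RPM (miR-665-5p, 1 library) to 133 RPM (miR-434-5p), and only 2 of them, miR-434-5p and miR-127-5p, had reads in every library. In the BG5 non-PGCLC libraries 6 of the 9 had reads in both, against 2 of 9 in E14 mPGCLC. No miR-540-5p read was found among 11685 reads of that hairpin. These were 36 distinct sequences and copies cannot be told from molecules, so no limit on the share is given. The main arm held a median of 91.8% of the hairpin's reads for Mir127, 95.0% for Mir434, 95.6% for Mir136, 98.7% for Mir433 and 98.8% for Mir431, and 100% for each of the 5 hairpins outside Rtl1. The lowest share in a library was 62.2%, for Mir136. miR-434-5p, the passenger of the most abundant arm, had 2.66 and 8.33 RPM in E14 mPGCLC, 29.2 and 41.3 RPM in E14 non-PGCLC, 213 and 99.7 RPM in BG5 mPGCLC, 342 and 414 RPM in BG5 non-PGCLC, and 39.9 and 136 RPM in SGET non-PGCLC. Both arms of Mir434 therefore had their lowest group in E14 mPGCLC and their highest in BG5 non-PGCLC.

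Comparisons were fitted with edgeR over 561 arms, and p-values were adjusted over all of them at a threshold of 0.05. Of the 19 member arms with reads 18 passed the filter on low counts, among them all 10 main arms. As the members had been chosen on such contrasts, the counts below are given beside those of all arms and nothing is read from them. Between E14 mPGCLC and E14 non-PGCLC 1 of 18 was called, miR-434-3p, which fell, where 2.32% of all arms were called lower, 0.535% higher and 2.85% in either direction. Between BG5 mPGCLC and BG5 non-PGCLC miR-434-3p, miR-433-3p, miR-127-3p and miR-431-5p fell, 4 of 18, beside 5.7% of all arms called lower, 8.38% higher and 14.1% in either direction. In BG5 mPGCLC relative to E14 mPGCLC the same 4 arms and miR-434-5p rose, 5 of 18, where 5.35% of all arms were called higher, 4.81% lower and 10.2% in either direction. In BG5 relative to E14 non-PGCLC these 4 arms and miR-337-5p rose, 5 of 18, beside 7.84% of all arms called higher, 7.66% lower and 15.5% in either direction. These comparisons share groups, so their calls are not separate evidence.

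Between SGET and E14 non-PGCLC edgeR called 0 of 18 member arms, 1 was under an unadjusted p of 0.05 and DESeq2 called 0, while edgeR called 4.63% of all arms, 1.78% higher and 2.85% lower. Of all 561 arms, 71 were under that unadjusted p and 76 were called by DESeq2. The difference of the cell-type effects of BG5 and E14 gave 0 of 18 calls, 0 under an unadjusted p of 0.05 and 0 by DESeq2, beside 5.7% of all arms, 3.92% higher and 1.78% lower. Here 83 of all 561 arms were under the unadjusted p and 78 were called by DESeq2. For the 4 abundant arms that difference was between -0.28 and 0.15 on the log2 scale, with SEs of 0.41 to 0.57. This rested on the TMM scale, where 5 of the 10 main arms were above 0 (median 0.0006), against 1 of 10 with total-read scaling (median -0.91).

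**Figure D4:**
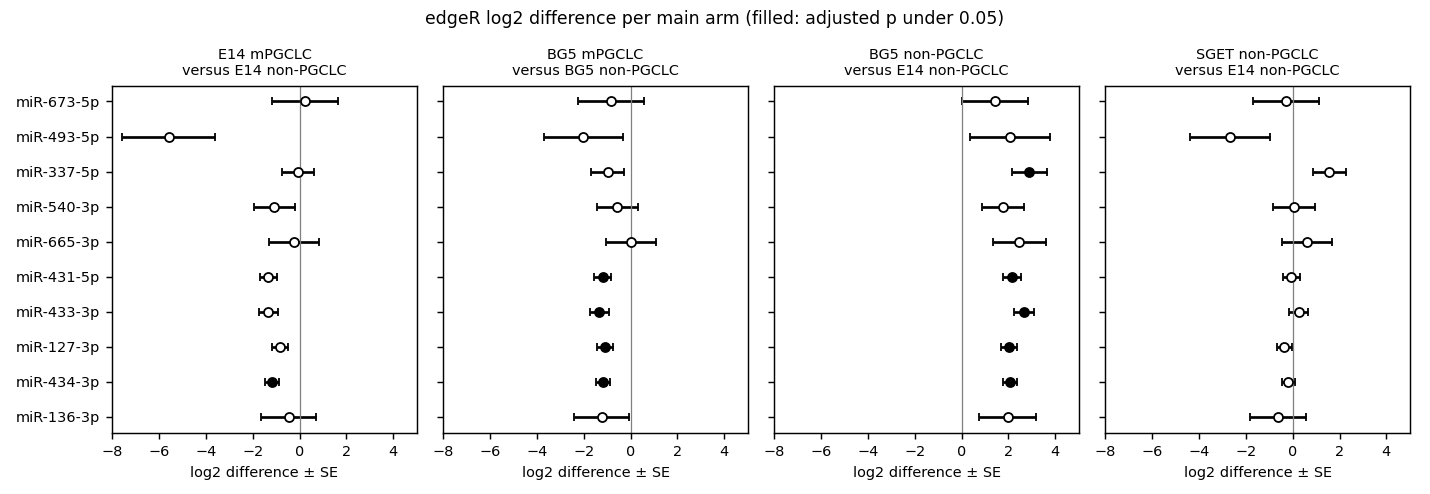
Log2 difference ± SE from edgeR for the more abundant arm of each hairpin in 4 comparisons, where filled points had an adjusted p under 0.05 and the vertical line marks 0. In the first 2 panels 9 of 10 points lie below 0, in the third all 10 lie above 0, and the SEs of miR-434-3p, miR-433-3p, miR-127-3p and miR-431-5p are the smallest.

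The median log2 difference of the 10 main arms was -0.95 for E14 mPGCLC against non-PGCLC and -1.15 for the same comparison in BG5, where the medians over all arms tested were 0 and -0.04. For BG5 against E14 it was 2.18 in mPGCLC and 2.07 in non-PGCLC, with all-arm medians of 0 and 0.16. For SGET against E14 non-PGCLC it was -0.12. Scaling mattered, because TMM factors ran from 0.715 to 1.86 and were highest in BG5 non-PGCLC. With total reads as the scale, the median of all arms moved by 1.04 for BG5 against E14 non-PGCLC and by -0.69 for BG5 mPGCLC against BG5 non-PGCLC. Relative to the TMM values, all 10 main arms kept their direction in both comparisons of BG5 with E14, while miR-665-3p in BG5 and miR-337-5p in E14 changed sign between the cell types. For SGET against E14 non-PGCLC 4 of 10 were above 0 by TMM and 8 of 10 by total reads.

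Counted by library, 6 of the 10 main arms were lower without overlap in E14 mPGCLC than in E14 non-PGCLC, where 14.4% of all arms were, and 1 was higher, where 24.8% of all arms were. In BG5, 10 of 10 were lower without overlap in mPGCLC, where 35.3% of all arms were. All 10 were higher without overlap in BG5 than in E14, both in mPGCLC, where 28.2% of all arms were, and in non-PGCLC, where 39.9% of all arms were. Between SGET and E14 non-PGCLC 2 were higher, 1 was lower and 7 overlapped, beside 22.3% and 14.1% of all arms. The shares of all arms include minor arms. Of all 18 member arms tested, 8 were lower and 1 was higher in E14 mPGCLC, and 14 were lower in BG5 mPGCLC. In BG5 against E14, 14 of 18 were higher in mPGCLC and 15 of 18 in non-PGCLC.

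The number of member calls in the cell-type comparisons changed when single libraries were left out. Such a fit leaves 1 library in a group and changes the spread shared by all groups. Calls among all arms were not counted in it, so these changes are not read as a property of the members. The number of calls in BG5, 4 in the full fit, was 0 without BG5 mPGCLC replicate 1, and 2 each without BG5 mPGCLC replicate 2, either BG5 non-PGCLC library or SGET non-PGCLC replicate 2. The 1 call in E14 became 0 with total-read scaling and 5 with DESeq2, which called 55 of all 561 arms. It became 3 without E14 non-PGCLC replicate 1, either BG5 mPGCLC library, BG5 non-PGCLC replicate 1 or SGET non-PGCLC replicate 2. It became 2 without E14 non-PGCLC replicate 2, 4 without BG5 non-PGCLC replicate 2 and 5 without SGET non-PGCLC replicate 1. The call in SGET that appeared without SGET non-PGCLC replicate 1 was 1 arm, lower than in E14 non-PGCLC.

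Marker miRNAs also differed between the groups. The mesenchymal list had the same highest and lowest group as the members' sum and was lower in mPGCLC than in non-PGCLC in both lines. Its BG5 mPGCLC libraries, however, lay below those of E14 and SGET non-PGCLC, whereas they lay above them in the sum. The mESC list ran in the reverse order of the sum apart from SGET and E14 non-PGCLC. The 5 mESC and early germ cell hairpins of the Mir290a-295 cluster found in the annotation, of 6 listed, summed to 55262 to 59603 RPM in E14 mPGCLC, 26598 to 36130 RPM in E14 non-PGCLC, 16733 to 22669 RPM in BG5 mPGCLC, 2307 to 3218 RPM in BG5 non-PGCLC and 41277 to 48365 RPM in SGET non-PGCLC. Mesenchymal Mir199a-1, Mir199a-2, Mir199b and Mir214 (4 of 4 with reads in each group) summed to 19.0 to 23.6, 1060 to 1242, 116 to 144, 13165 to 22031 and 425 to 427 RPM in the same order of groups. The epiblast hairpins Mir302a to Mir302d and Mir367 were at 4878 to 5088 RPM in BG5 mPGCLC and at 75.6 to 443 RPM elsewhere, with 5 of 5 detected in each group. The epithelial list had 5 of 5 hairpins with reads in each group and was at 3172 to 4337 RPM in BG5 mPGCLC against 1386 to 1399 RPM in BG5 non-PGCLC, and at 1901 to 1984 RPM in E14 mPGCLC against 1114 to 1133 RPM in E14 non-PGCLC, opposite to the members' sum. The neural list (6 of 6) was at 229 to 310.0 RPM in BG5 mPGCLC against 42.6 to 53.9 RPM in BG5 non-PGCLC, also opposite, and overlapped between the E14 cell types. Endothelial Mir126a ran from 12.1 to 132 RPM over the libraries, the muscle list from 3.64 to 232 RPM and Mir122 of liver and visceral endoderm from 0 to 59.1 RPM. The erythroid hairpins Mir144 and Mir451a were at 0 in all libraries. The part of these cell types in the members' levels was not tested.

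The miRNAs whose level pattern was most like that of the members' sum came from the other miRNA cluster of the region. Likeness was the root mean square difference of centred log2(RPM + 1) values over the 10 libraries, among 359 arms with a mean of at least 10 RPM outside the 10 hairpins, whose median difference was 1.85. The 5 closest arms were miR-382-5p (0.22), miR-487b-3p (0.22), miR-409-3p (0.28), miR-411-5p (0.37) and miR-369-3p (0.41), and all of them belong to the Mirg side of Dlk1-Dio3, over 100 kb away. The closest arm from another chromosome, miR-181b-5p, ranked 13 (0.56). Of the members' own main arms, miR-434-3p was at 0.12 and miR-493-5p at 2.0. miR-382-5p, as an example, had 208 and 164 RPM in E14 mPGCLC, 365 and 335 RPM in E14 non-PGCLC, 1111 and 932 RPM in BG5 mPGCLC, 5806 and 2979 RPM in BG5 non-PGCLC, and 533 and 706 RPM in SGET non-PGCLC.

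The rest of the region was examined as lists. On the Mirg side 36 of 41 listed hairpins had reads, although the list holds Mir3544, which lies opposite Mir337, and the members' sum was 0.308 to 0.537 of theirs. That ratio was highest in BG5 non-PGCLC, at 0.425 and 0.537. In E14 mPGCLC against non-PGCLC, 1 of 61 Mirg side arms tested rose and 1 fell, beside 0.535% and 2.32% of all arms. In BG5, 0 rose and 2 fell, beside 8.38% and 5.7% of all arms. In BG5 against E14 mPGCLC, 13 rose and 0 fell, beside 5.35% and 4.81% of all arms. In BG5 against E14 non-PGCLC, 16 rose and 0 fell, beside 7.84% and 7.66%. In SGET against E14 non-PGCLC 0 rose and 1 fell, beside 1.78% and 2.85%. The Meg3 and Rian side had reads for 4 of 6 hairpins, and its miR-370-3p fell in E14 mPGCLC and rose in BG5 against E14 in both cell types. Near Rtl1, Mir3070b had reads in 3 BG5 libraries only, at 4.40 to 44.0 RPM, and Mir3070a and Mir3071, which is transcribed opposite Mir136, had none. Mir1247, on the Dio3 side, had 0 to 71.7 RPM and 0 calls in the 6 comparisons.

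Reads from Rtl1 itself were nearly absent. Over 20 nt or longer, 9 of 10 libraries had 0 reads identical to the sense strand of the Rtl1 transcript, and BG5 non-PGCLC replicate 2 had 2 reads of 1 sequence. The antisense strand outside the hairpins had 0 to 283 reads of 0 to 3 distinct sequences per library. Such libraries hold small RNA, so these counts do not measure Rtl1 mRNA.

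The rule that chose the members used levels and not read ends. Over all reads, the 5′ end of the 9 main arms other than miR-136-3p was that of RefSeq in 91.0% to 100% of reads. Single libraries were lower, with 40.2% for miR-337-5p in E14 non-PGCLC replicate 2 as the lowest value and 83.2% for miR-665-3p in E14 mPGCLC replicate 1 as the lowest for the other 8. miR-136-3p, in contrast, began at the RefSeq base in 44.2% of 7406 reads, 1 base earlier in 31.0% and 1 base later in 19.3%. Bases 2 to 8 are then AUCAUCG and CAUCGUC in place of UCAUCGU. The minor arm miR-127-5p began 2 bases after the RefSeq base in 58.1% of its reads, but single libraries ran from 0% to 100%. The most frequent length was 22 nt for miR-493-5p and miR-540-3p and 23 nt for miR-665-3p, where RefSeq gives 19, 20 and 20 nt.

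The share of reads at the most frequent 5′ end and the mean read length were compared between the 4 mPGCLC and the 4 non-PGCLC libraries of E14 and BG5, for 10 arms with at least 50 reads in each. For miR-136-3p, 21.3% and 30.2% of reads in E14 mPGCLC and 39.9% and 20% in BG5 mPGCLC began at the RefSeq base, against 61.1% and 43.9% in E14 non-PGCLC and 48.6% and 52.8% in BG5 non-PGCLC. The cell types did not overlap, with a difference of -23.8 percentage points between 27.8% ± 9.2 and 51.6% ± 7.3 (SD, n = 4; exact permutation test, two-sided p = 0.0286, adjusted p = 0.286). For miR-127-3p the mean read length was 22.5 ± 0.1 nt in mPGCLC and 22.7 ± 0.1 nt in non-PGCLC (SD, n = 4; exact permutation test, two-sided p = 0.0286, adjusted p = 0.286). Neither passed after adjustment over the 20 tests. The smallest p that this design allows is 0.0286, and 12 of the 20 tests would have to reach it before any could pass. Libraries were exchanged freely between E14 and BG5, so these p-values take no account of line. The SGET libraries, which were not in the test, had 33.1% and 0% at that miR-136-3p end. Few distinct sequences lay behind all of these shares, 4 and 4 in E14 mPGCLC, 3 and 4 in E14 non-PGCLC, 10 and 7 in BG5 mPGCLC, 16 and 15 in BG5 non-PGCLC, and 6 and 2 in SGET non-PGCLC.

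The 3′ ends carried bases that the hairpin does not encode, mostly A and T. The 5 most frequent reads of miR-127-3p and the 4 most frequent of miR-433-3p are shown to make this visible, as sequenced (T for U), with added bases in capitals.
miR-127-3p, 44.0% of its reads: tcggatccgtctgagcttggct
miR-127-3p, 9.44%: tcggatccgtctgagcttggctT
miR-127-3p, 7.88%: tcggatccgtctgagcttggctA
miR-127-3p, 7.45%: tcggatccgtctgagcttggctAT
miR-127-3p, 6.58%: tcggatccgtctgagcttggctAA
miR-433-3p, 54.5% of its reads: atcatgatgggctcctcggtgt
miR-433-3p, 13.6%: atcatgatgggctcctcggtgtAA
miR-433-3p, 4.88%: atcatgatgggctcctcggtgtAT
miR-433-3p, 4.14%: atcatgatgggctcctcggtgtA
Such additions were on 51.3% of miR-127-3p reads, 34.3% of miR-433-3p reads and 22.9% of miR-431-5p reads, and 97.5%, 90.0% and 99.1% of them held A and T only. Among the other main arms it ran from 69.95% for miR-337-5p, 79.2% for miR-434-3p and 86.7% for miR-665-3p to 99.6% for miR-540-3p. miR-434-3p, the most abundant arm and from a hairpin less than 2 kb from Mir127, had them on 4.85% of its reads. Over libraries the range was 37.9% to 59.1% for miR-127-3p, 16.2% to 52.0% for miR-433-3p, 7.27% to 36.5% for miR-431-5p and 0.277% to 13.3% for miR-434-3p. miR-127-3p and miR-434-3p did not overlap. Among arms outside Rtl1 the share of all reads was 44.8% for miR-540-3p, 40.9% for miR-665-3p and 24.8% for miR-673-5p, but single libraries ran from 0.546% to 91.6%, from 0% to 100% and from 0% to 99.3%, so these are not stable values of the arms. It was 6.79% for miR-493-5p (0% to 12.7%) and 0.906% for miR-337-5p (0% to 4.12%). The first added base was A in 91.0% of the additions of miR-433-3p, but in 56.8% of those of miR-127-3p. miR-136-3p had additions on 6.24% of its reads (0.277% to 69.8% over libraries), of which 89.2% started with T and 7.79% with A. An added base that equals the genomic one cannot be seen, so these shares depend on the sequence that follows each arm. Reads over 26 nt or with over 2 later mismatches were not assigned, so longer additions can be missed. All bases after the first mismatch were counted as added. Between the BG5 cell types this share was lower in mPGCLC without overlap for 4 of the 10 main arms, higher for 2 and overlapping for 4. Of the 2 higher arms, miR-337-5p was separate by a margin of 0.544% to 0.543% only. The same was not counted over all arms, so nothing is read from these counts about the members. The share was 47.0% and 39.8% against 57.1% and 51.2% for miR-127-3p, 21.6% and 16.2% against 39.1% and 38.4% for miR-433-3p, and 8.96% and 8.91% against 26.8% and 25.2% for miR-431-5p. The other direction was seen for miR-665-3p, at 79.0% and 41.2% in BG5 mPGCLC against 34.1% and 12.6% in BG5 non-PGCLC, and among minor arms for miR-434-5p, at 16.7% and 9.31% against 0.774% and 0.335%. The minor arms miR-127-5p, miR-136-5p and miR-431-3p were instead lower in BG5 mPGCLC without overlap. For miR-127-5p it was 0.541% and 6.45% against 22.6% and 27.9%. The E14 cell types overlapped for 9 of the 10 main arms, again without a count over all arms beside it. The exception was miR-434-3p, at 0.277% and 2.85% in mPGCLC against 6.17% and 5.09% in non-PGCLC. The share was not tested between groups.

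**Figure D5:**
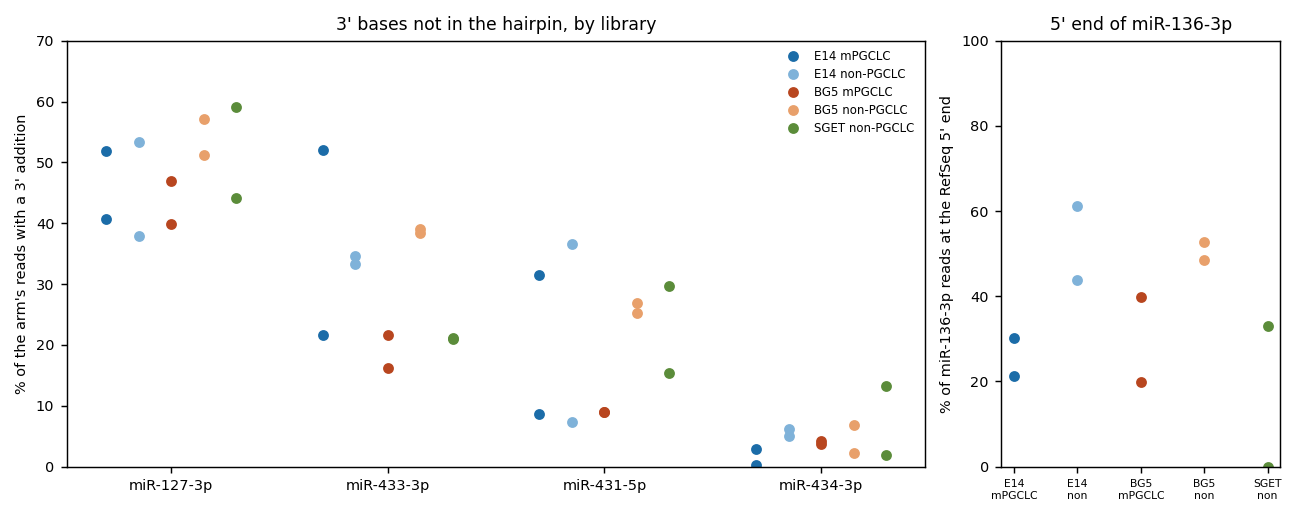
Left, percentage of an arm's reads with 3′ bases not in the hairpin for 4 arms inside Rtl1, where each point is 1 library coloured by group. Right, percentage of miR-136-3p reads that start at the RefSeq 5′ end, where the 4 mPGCLC libraries lie between 20% and 39.9% and the E14 and BG5 non-PGCLC libraries between 43.9% and 61.1%.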

How the data were processed

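Small RNA was sequenced from 10 libraries in 5 groups of 2. The authors trimmed adapters with cutadapt 3.2, aligned to GRCm38 with STAR 2.5.3a and deposited raw read counts per distinct read sequence, with no molecular identifiers used, so amplified copies stay in the counts. Here, reads of 18 to 26 nt were assigned to GENCODE vM21 hairpins if their first 18 bases matched exactly in sense, with up to 2 later mismatches, and summed per RefSeq arm (GRCm38.p6). RPM used all reads of a file. edgeR 4.0.16 (TMM, filterByExpr, quasi-likelihood, 1 fit of all 10 libraries, Benjamini-Hochberg over 561 arms) gave log2 differences, with SE from the F statistic. The code was tested on simulated data. DESeq2 1.42.0 and the other alternatives are given in the closing section. The members, gene lists and tests were chosen with earlier results of these data known. The arm with the higher mean RPM of each hairpin was described in full, and the 5 most alike other arms were named. Same-numbered samples did not deviate together.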

Additional observations from a re-analysis of the deposited data

Results flagged for a closer look

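The libraries of miR-673-5p lay in opposite orders in the 2 lines with both cell types, although neither difference was called (log2 0.23 ± 1.39 in E14 and -0.83 ± 1.40 in BG5, SE, edgeR). Both E14 mPGCLC libraries (28.3 and 30.7 RPM) were above both E14 non-PGCLC libraries (26.4 and 18.1 RPM), while both BG5 mPGCLC libraries (34.4 and 45.2 RPM) were below both BG5 non-PGCLC libraries (153 and 93.4 RPM). On the log2 scale of edgeR, the cell-type effects of BG5 and E14 differed by -1.06 ± 1.98 (SE), which did not pass the test. Each library held 1 to 9 distinct miR-673-5p sequences.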

How the results depend on the processing

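Leaving out the read-end tests, 10 results were recomputed under 122 alternatives, of which 93 left the value within its limits, 28 moved it and 1 reversed it. Apart from DESeq2, calls among all arms were not counted under the alternatives, so changed counts are not read as a property of the members. Member arms called in E14 mPGCLC against non-PGCLC (1) became 0 with total-read scaling, 5 with DESeq2, 4 without a filter on low counts, 4 with the replicate block and 2 with exact matches, and ranged from 1 to 5 with a library left out. In BG5 mPGCLC against non-PGCLC the 4 calls became 1 with exact matches and 0 to 4 with a library left out. With DESeq2 the 5 calls in BG5 against E14 mPGCLC became 9 and the 5 in BG5 against E14 non-PGCLC became 10 (102 and 149 of all 561 arms were called by DESeq2), while both ranged from 4 to 6 with a library left out. In SGET against E14 non-PGCLC calls ranged from 0 to 1. The log2 ratios of the summed RPM became -1.65 (E14 cell types), -1.32 (BG5 cell types) and 2.85 (BG5 to E14 non-PGCLC) with miRNA reads as denominator, and that of SGET to E14 non-PGCLC reversed to -0.18. When each distinct sequence was counted 1 time, an alternative chosen after seeing the data, they were -0.28, -0.94 and 1.89, and 0.42 for SGET. The cause was not tested. The correlation of the deviations of same-numbered samples was -0.05 in E14 and -0.004 in BG5. No shared deviation was thus seen, which does not show that same-numbered samples are unpaired. Apart from the E14 cell-type calls, the replicate block changed no count by over 1.5 times. The read-end tests gave 0 calls under each alternative, which says nothing of stability, since so small a design could hardly pass, and the smallest p with the replicate block was 0.125. Of 90 pairs of a minor arm and a library 42 had 0 reads, so minor arms were often below the limit of detection at this depth.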
